A study of Mus musculus with 9 samples.

Results

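The genes of the cyclin-dependent kinase (CDK) inhibitors were followed in mouse liver. They are Cdkn1a, Cdkn1b and Cdkn1c of the Cip/Kip family and Cdkn2a, Cdkn2b, Cdkn2c and Cdkn2d of the Ink4 family, 7 of the 20972 genes that could be named on the arrays. They were found by matching the RefSeq accession of each probe to a gene symbol, which gave 10 of the 55681 distinct probes. Cdkn1a, Cdkn2a and Cdkn2b had 2 probes each and the other genes had 1. The family was selected on the measured difference of Cdkn1a between STAM-NON and Normal mice on these same arrays, so the values of Cdkn1a are given as a description and without a test.

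Total liver RNA was measured on 1-colour Agilent arrays from 9 male C57B/6 J mice at 20 weeks of age, 3 in each of 3 groups. STAM mice received streptozotocin, a DNA-alkylating drug that is toxic to insulin-secreting cells, under the skin shortly after birth and were fed a high-fat diet after weaning. They form a diabetic, non-obese model of steatohepatitis that goes on to liver tumours. STAM-NON mice had no drug treatment. STAM-INS mice received repeated injections of the insulin analogue insulin glargine each day, at a dose set by blood glucose. The labels describe the Normal mice only as normal, and in the study's text its normal mice ate ordinary chow and received neither streptozotocin nor the high-fat diet. Both STAM groups share streptozotocin and the diet, so a difference from Normal holds both together. The liver was taken at the stage when tumours are present, and whether tumour tissue went into the RNA is not stated. All 8 hepatocyte markers examined, among them Alb and Apoa1, were well above background on all 9 arrays.

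CDKs paired with cyclins drive the cell from growth into DNA synthesis and division. The Cip/Kip proteins p21 (Cdkn1a), p27 (Cdkn1b) and p57 (Cdkn1c) bind cyclin and CDK together, while the Ink4 proteins p16Ink4a (Cdkn2a), p15 (Cdkn2b), p18 (Cdkn2c) and p19Ink4d (Cdkn2d) bind Cdk4 and Cdk6 and keep them from D-type cyclins. Both families thereby hold back phosphorylation of the retinoblastoma protein. Cdkn1a is a classic target of the transcription factor p53 after DNA damage, and Cdkn2a, which also encodes p19Arf, and Cdkn2b are induced in senescent cells. In the healthy adult liver hepatocytes rarely divide.

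The 250 bases in front of the annotated starts of Cdkn1a, Cdkn2a and Cdkn2b are printed because these 3 genes had the largest differences between STAM and Normal liver. They come from RefSeq on GRCm38.p6, where 6 of the 7 genes were matched by symbol (all but Cdkn1c), and run in the direction of transcription. Capitals mark matches, on either strand, to the GC box GGGCGG, the TATA box TATAAA or the p53 half-site. Matches did not overlap in the windows printed.
Cdkn1a, first start, GRCm38.p6, chr17:29090729-29090978, + strand: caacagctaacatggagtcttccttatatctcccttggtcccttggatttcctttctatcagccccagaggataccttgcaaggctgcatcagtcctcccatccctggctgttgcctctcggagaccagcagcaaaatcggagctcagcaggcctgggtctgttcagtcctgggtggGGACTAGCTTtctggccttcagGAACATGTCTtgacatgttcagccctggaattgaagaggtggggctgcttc
Cdkn1a, second start, GRCm38.p6, chr17:29093519-29093768, + strand: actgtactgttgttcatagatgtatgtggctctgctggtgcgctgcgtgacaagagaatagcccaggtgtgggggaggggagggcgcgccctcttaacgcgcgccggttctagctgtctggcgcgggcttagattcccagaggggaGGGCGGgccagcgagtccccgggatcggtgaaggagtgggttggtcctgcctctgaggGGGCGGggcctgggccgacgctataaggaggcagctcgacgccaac
Cdkn2a, first start, GRCm38.p6, chr4:89294620-89294869, - strand: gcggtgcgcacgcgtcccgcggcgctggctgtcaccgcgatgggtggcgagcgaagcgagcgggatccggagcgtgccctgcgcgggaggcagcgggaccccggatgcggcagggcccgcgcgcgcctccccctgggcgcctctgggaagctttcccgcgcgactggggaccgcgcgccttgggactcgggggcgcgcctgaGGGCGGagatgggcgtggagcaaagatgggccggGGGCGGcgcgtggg
Cdkn2a, second start, GRCm38.p6, chr4:89282193-89282442, - strand: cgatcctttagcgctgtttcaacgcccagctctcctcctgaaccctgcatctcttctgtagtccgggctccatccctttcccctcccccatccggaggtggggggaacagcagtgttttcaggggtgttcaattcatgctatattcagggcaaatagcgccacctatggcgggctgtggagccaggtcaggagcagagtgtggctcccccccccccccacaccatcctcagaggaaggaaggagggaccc
Cdkn2b, GRCm38.p6, chr4:89311033-89311282, - strand: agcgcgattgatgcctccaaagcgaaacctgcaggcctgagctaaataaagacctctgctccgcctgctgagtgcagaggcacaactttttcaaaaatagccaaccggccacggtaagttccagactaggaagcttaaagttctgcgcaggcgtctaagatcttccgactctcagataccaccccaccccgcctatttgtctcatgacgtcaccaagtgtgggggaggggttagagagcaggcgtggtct
The window before the first start of Cdkn1a held 2 p53 half-sites, and such a half-site was present in 7.13% of 32851 windows of the same length. Its second start had 2 GC boxes instead, a motif found in 32.7% of windows. The first start of Cdkn2a, from which p19Arf is transcribed, also had 2 GC boxes. The second start of Cdkn2a and the start of Cdkn2b matched none of the motifs. A TATA box was in 12.4% of all windows and in none of these 5. Cdkn2d was the other gene of the family with a half-site. A match is only a run of letters and was not measured here.

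Values are log2 of the background-subtracted signal after subtracting its 75th percentile on each array, called the centred log2 signal. A value of 0 lies at that percentile, and no probe's level is set against that of another probe. Between 46.2% and 65.0% of the non-control spots of an array were well above background by the scanner software's flag. No spot was saturated, and with 3 arrays a group it is their number that limits the precision. All STAM arrays lay on 1 slide and all Normal arrays on another with a scan of its own, so slide, scan and model cannot be told apart in any comparison with Normal. The STAM-INS arrays lay in both rows of slide positions, STAM-INS replicate 1 with the STAM-NON arrays and the other two in the row of the Normal arrays. In bulk liver, fewer cells of a type and less RNA per cell cannot be told apart.

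Cdkn1a was high in both STAM groups and close to background in Normal liver. The probe that stands for the gene, printed in 10 spots per array, read 1.24, 1.55 and 1.99 in the STAM-NON mice. It read 1.07, 2.57 and 2.09 in the STAM-INS mice. In Normal mice it read -3.33, -3.33 and -3.54. The lowest STAM array lay 4.39 above the highest Normal array, whereas the 2 STAM groups overlapped, with the highest and the lowest STAM value both in STAM-INS. The means were 1.59 ± 0.38 for STAM-NON mice, 1.91 ± 0.77 for STAM-INS mice and -3.40 ± 0.12 for Normal mice (SD, n = 3 per group). The difference from Normal was 4.99 in STAM-NON (SE 0.35) and 5.31 in STAM-INS (SE 0.35). Its size depended on the processing, as it was 3.15 and 3.45 after normexp background correction, and 6.25 and 5.73 with the slide row as a block. The difference between STAM-INS and STAM-NON was 0.31 (SE 0.35), less than the spread between the STAM-INS mice. STAM-INS replicate 1, the one array of its group in the row of the STAM-NON arrays, lay 0.53 below their mean, and the other two lay 5.73 above the Normal mean.

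The 10 spots of this probe show how closely a single array fixes the value. Their SD was 0.03 to 0.06 on the STAM arrays. On the Normal arrays the SD was 0.26 to 0.34, and only 6 to 7 of the 10 spots were well above background there. The level of Cdkn1a in Normal liver was therefore near the lower end of what the array measured.

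**Figure D1:**
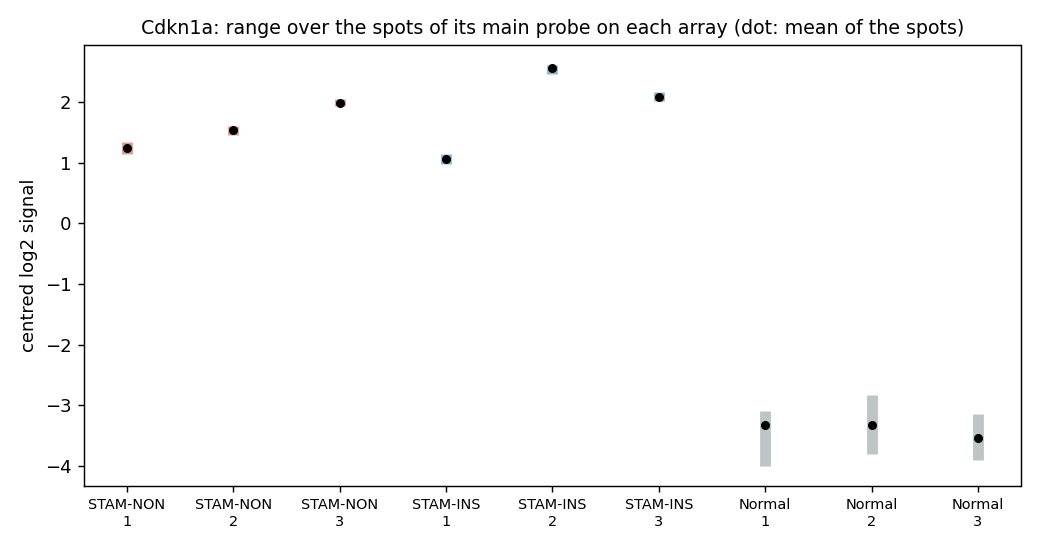
Centred log2 signal (vertical axis) of the main Cdkn1a probe on each of the 9 arrays. Bars span the lowest to the highest of its spots and dots are their mean. The 6 STAM arrays lie between 1.07 and 2.57 with short bars, and the 3 Normal arrays lie between -3.54 and -3.33 with longer ones.

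The second probe of Cdkn1a names another transcript of the gene (NM_001111099, against NM_007669 for the main probe) and was much dimmer. It read -3.16, -2.41 and -2.66 in STAM-NON and -4.27, -3.44 and -3.06 in STAM-INS. In Normal mice it read -5.91, -6.14 and -5.00 and was not well above background on any array. The STAM arrays again lay above every Normal array, and the STAM-NON mean was at least 2.23-fold and the STAM-INS mean at least 1.24-fold higher. Such a bound takes the lowest signal well above background, or the probe's own signal where that is higher, for each Normal array. Between the 2 STAM groups the probes differed in sign, with STAM-INS minus STAM-NON at -0.85 (SE 0.39) on the second probe. The files do not place the probes within the transcripts.

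Cdkn1b, whose product p27 restrains CDK2 in resting cells, was measured well above background on all 9 arrays and was nearly level. It read 1.71, 1.89 and 2.16 in STAM-NON, 2.10, 1.87 and 1.90 in STAM-INS, and 2.23, 2.09 and 2.0 in Normal. The 3 groups overlapped. STAM-NON minus Normal was -0.18 (95% interval -0.51 to 0.14, limma adjusted p 0.376), a sign that turned when arrays were centred on spike-ins (0.13) or after normexp background correction (0.03). STAM-INS minus Normal was -0.15 (interval -0.48 to 0.17, limma adjusted p 0.484), and 0.01 with the spike-ins. A change of 2-fold in either direction lies outside both intervals.

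Cdkn1c, an imprinted gene whose product p57 acts mostly in development, varied most among the STAM-NON mice. It read 1.18, -0.64 and 0.01 in STAM-NON, -0.27, -0.78 and -0.54 in STAM-INS, and -0.10, -0.12 and -0.32 in Normal. STAM-NON replicate 1 stood alone at the top, and the SD was 0.92 in STAM-NON against 0.12 in Normal. STAM-NON minus Normal was 0.37 (SE 0.39, limma adjusted p 0.525) and became -0.13 without STAM-NON replicate 1. STAM-INS minus STAM-NON was -0.71 (95% interval -1.62 to 0.19, limma adjusted p 0.638), the largest difference between the STAM groups among the main probes, and it was -0.22 without that array.

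Among the Ink4 genes, Cdkn2a had the largest difference from Normal. Its main probe read -0.48, -1.19 and -0.58 in STAM-NON and -0.87, -1.37 and -1.10 in STAM-INS. In Normal mice it read -4.70, -3.88 and -4.15 and was not well above background on any array. Every STAM array lay at least 2.51 above the highest Normal array, and the 2 STAM groups overlapped. Cdkn2a was higher in STAM-NON by 3.49 (SE 0.26, limma adjusted p 0.0014), at least 8.77-fold. It was higher in STAM-INS by 3.13 (SE 0.26, limma adjusted p 0.00173), at least 6.82-fold. After normexp background correction the differences were smaller, at 1.52 and 1.24, and still called. The probe passed the filter on dim probes only through the STAM groups, where it is high.

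The second Cdkn2a probe carries the same accession (NM_009877) but was not well above background on any of the 9 arrays, with values between -6.49 and -4.92, and was not tested. The gene encodes both p16Ink4a and p19Arf from separate first exons, the starts printed above. Which of the products either probe reads cannot be told from the files used here.

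Cdkn2b, which lies next to Cdkn2a on chromosome 4, was also higher in both STAM groups, by a smaller margin. It read -1.59, -2.68 and -1.59 in STAM-NON, -1.05, -1.83 and -2.33 in STAM-INS, and -3.83, -3.90 and -2.88 in Normal. STAM-NON replicate 2, the lowest STAM array, lay 0.20 above Normal replicate 3, the one Normal array on which the probe was well above background. The difference was 1.58 for STAM-NON (SE 0.43, limma adjusted p 0.0434) and 1.80 for STAM-INS (SE 0.43, limma adjusted p 0.0321). This probe too passed the filter on dim probes only through the STAM groups, so the size of the difference is uncertain. The call was lost under 13 of 21 other settings in STAM-NON against Normal and 9 of 21 in STAM-INS against Normal. Removing either of the 2 Normal arrays with a dim spot lost it in both comparisons.

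**Figure D2:**
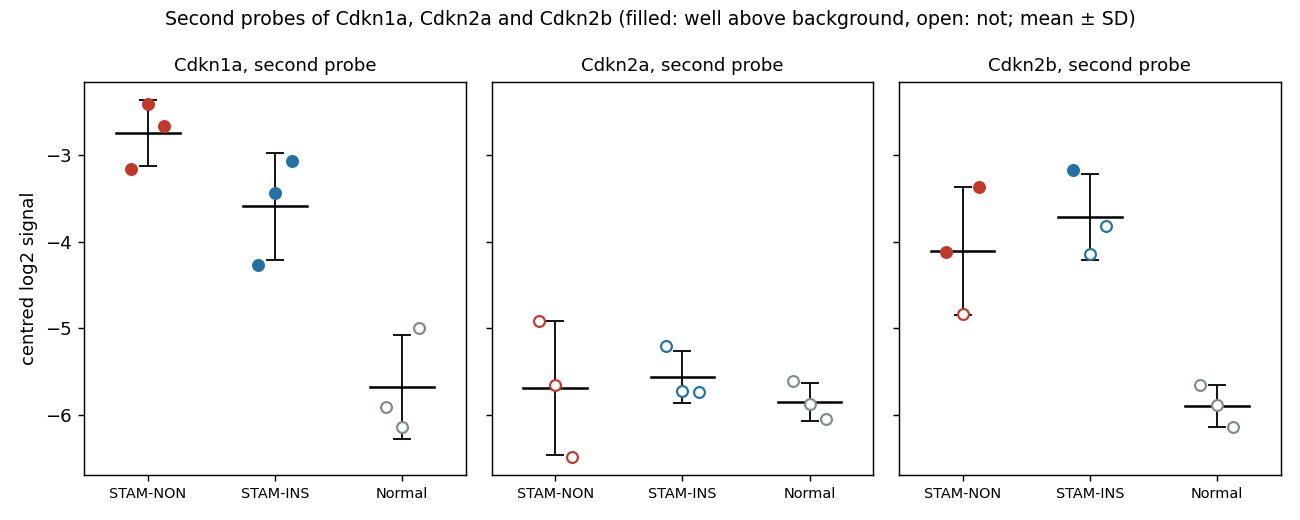
Centred log2 signal (vertical axis) of the second probes of Cdkn1a, Cdkn2a and Cdkn2b by group, 1 point per array, filled where the probe was well above background. Lines and bars are the mean ± SD of 3 arrays. The Cdkn1a probe is filled on all 6 STAM arrays and no Normal array, the Cdkn2a probe on none, and the Cdkn2b probe on 3 STAM arrays.

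Outside the pair, the protein-coding neighbour of Cdkn2a on its other side is Mtap, an enzyme of methionine salvage. Mtap was well above background on all 9 arrays, read -0.75 to -0.20 in STAM-NON, -0.52 to -0.32 in STAM-INS and -0.61 to -0.15 in Normal, and differed between STAM-NON and Normal by -0.13 (SE 0.18, limma adjusted p 0.611). On the other side of Cdkn2b, Dmrta1 was too dim to be tested. Srsf3, the neighbour of Cdkn1a on the side of lower coordinates, differed between STAM-NON and Normal by 0.18 (SE 0.18, limma adjusted p 0.492). Of 8 tested protein-coding neighbours of the 7 genes that are not CDK inhibitors themselves, 0 were called in STAM-NON against Normal, with a lowest limma adjusted p of 0.0923 for Apold1 beside Cdkn1b. Over all genes 16.8% were called in that comparison, so 0 of 8 does not set the neighbours apart.

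Cdkn2c, coding for p18, had a smaller but tight difference. It read -0.08, -0.73 and -0.59 in STAM-NON, -0.11, -0.19 and -0.34 in STAM-INS, and -1.12, -1.27 and -1.30 in Normal. No STAM array reached down to the Normal arrays. The difference was 0.76 for STAM-NON (SE 0.17, 1.70-fold, limma adjusted p 0.027) and 1.02 for STAM-INS (SE 0.17, 2.03-fold, limma adjusted p 0.0107). In STAM-NON against Normal the call was lost under 10 of 22 other settings, which include leaving out each of the Normal arrays. In STAM-INS against Normal it was lost under 1 of 22, with no filter on dim probes.

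Cdkn2d, coding for p19Ink4d, was well above background on all arrays and its groups overlapped. It read 0.92, 0.84 and 1.34 in STAM-NON, 0.83, 1.25 and 0.57 in STAM-INS, and 0.99, 0.49 and 0.52 in Normal. STAM-NON minus Normal was 0.38 (95% interval -0.14 to 0.89, limma adjusted p 0.258) and STAM-INS minus Normal was 0.22 (interval -0.29 to 0.74, limma adjusted p 0.516).

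**Figure D3:**
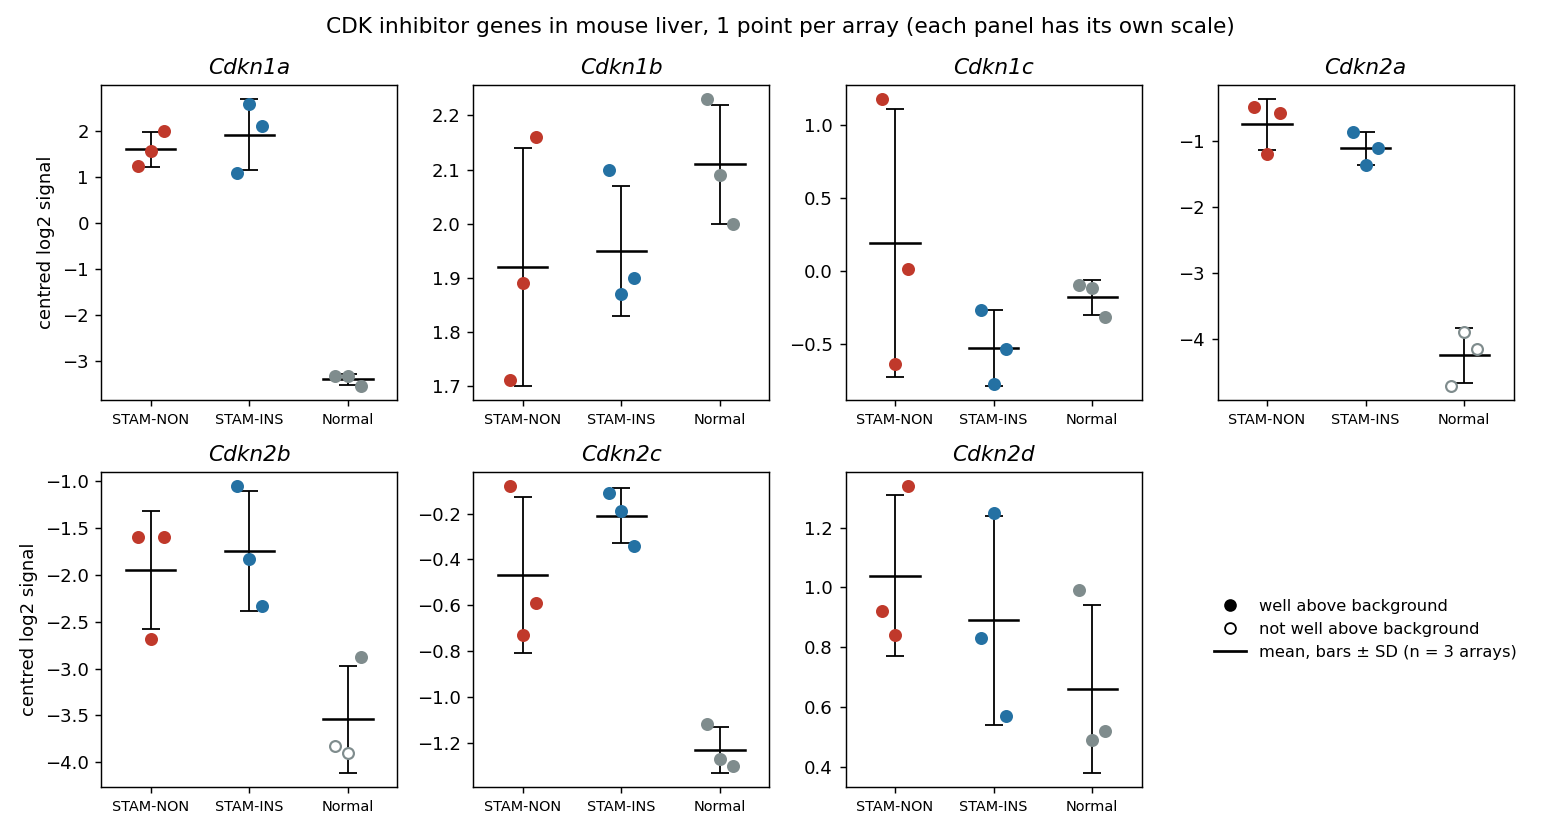
Centred log2 signal (vertical axes, a scale for each panel) of the main probe of each CDK inhibitor gene, 1 point per array by group. Horizontal lines and bars are the mean ± SD of 3 arrays, and open points were not well above background. The STAM points of Cdkn1a, Cdkn2a, Cdkn2b and Cdkn2c lie above all Normal points, while those of Cdkn1b, Cdkn1c and Cdkn2d mix with them.

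Counting the 6 genes other than Cdkn1a, 3 were higher in STAM-NON than in Normal at a limma adjusted p under 0.05 and 0 were lower. Over all 13381 genes tested with 1 probe each, 7.86% were called higher and 8.93% lower. The values of the groups did not overlap for these same 3 genes, as for 14.9% of all genes in that direction. The median difference of the 6 was 0.57, beside -0.11 over all genes. The same 3 genes, Cdkn2a, Cdkn2b and Cdkn2c, were called higher in STAM-INS against Normal, where 6.14% of all genes were called higher and 7.49% lower, with a median of 0.62 beside -0.07. Their groups did not overlap there either, as for 17.6% of all genes. Cdkn2a and Cdkn2b passed the filter on dim probes only through the STAM groups, so these counts and medians are a description and support nothing further. With probes required well above background on all arrays, 1 of the genes, Cdkn2c, was called in either comparison. These comparisons share the Normal arrays. With the scaling between arrays or the background correction changed, 2 to 3 of the 6 were called higher and 0 lower in either comparison. With the slide row as a block, 0 of the 6 were called in STAM-NON against Normal, and Cdkn2a then differed by 3.12 with a limma adjusted p of 0.107. All STAM-NON arrays and all Normal arrays lay in separate rows, so this block was estimated from the STAM-INS arrays alone.

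The comparison of STAM-INS with STAM-NON asks what insulin treatment changed within the model. None of the 6 genes was called, none had an unadjusted limma p under 0.05, and the lowest was 0.105 for Cdkn1c. Over all genes 0.0822% were called and 9.32% had an unadjusted p under 0.05. The values of the STAM groups overlapped for every one of the 7 main probes, while 12.7% of all genes had groups that did not overlap. The 95% intervals of STAM-INS minus STAM-NON ran from -0.29 to 0.36 for Cdkn1b, -0.96 to 0.24 for Cdkn2a, -0.78 to 1.21 for Cdkn2b, -0.14 to 0.65 for Cdkn2c and -0.67 to 0.36 for Cdkn2d. These widths leave room for changes of up to about 2-fold in Cdkn2a and Cdkn2b.

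**Figure D4:**
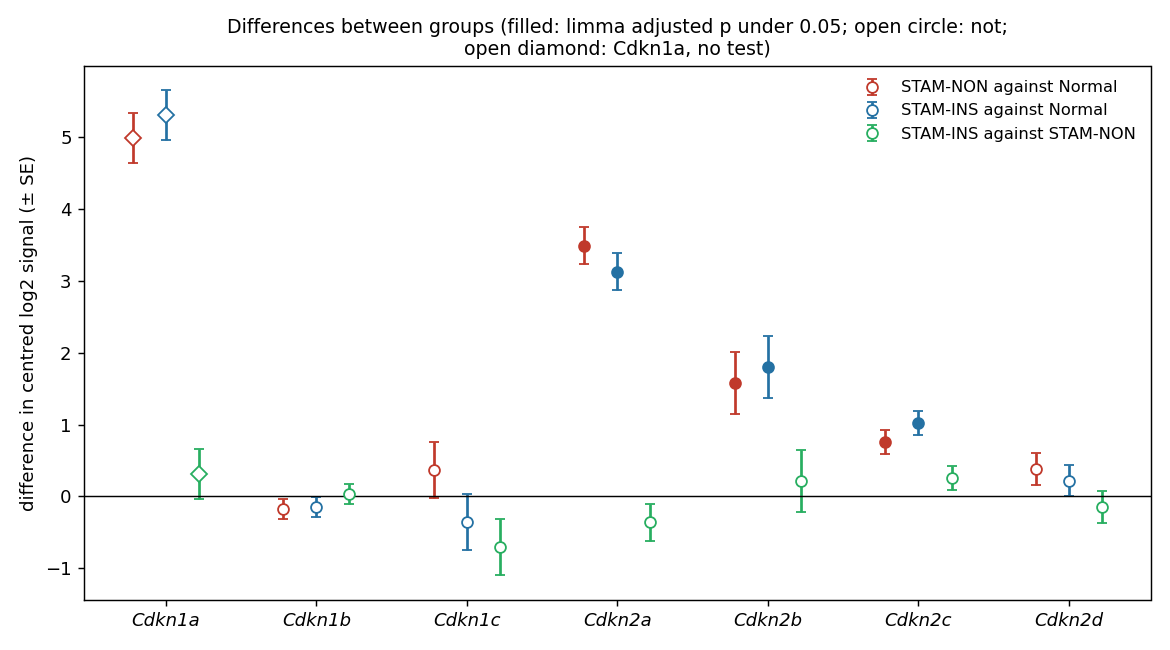
Differences in centred log2 signal (vertical axis, ± SE from limma) for each CDK inhibitor gene in the 3 comparisons. Filled circles had a limma adjusted p under 0.05, open circles did not, and the diamonds of Cdkn1a were not tested. Both comparisons with Normal stand at 4.99 and 5.31 for Cdkn1a and at 3.49 and 3.13 for Cdkn2a, and the comparison of the STAM groups stays between -0.71 and 0.31.

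Within the family, Cdkn1a followed Cdkn2a (r = 0.948), Cdkn2c (0.871) and Cdkn2b (0.794) over the 9 arrays, which share 2 slides and mainly separate STAM from Normal. Over the 6 STAM arrays alone the correlations of Cdkn1a with these genes were -0.557, -0.201 and -0.362. Cdkn1a was thus not highest in the STAM mice with the most Cdkn2a, as STAM-INS replicate 2 had the highest value of Cdkn1a and the lowest STAM value of Cdkn2a.

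The 6 genes most like Cdkn1a in their pattern over the 9 arrays, of 13374 compared by Pearson correlation, were Arhgap4 (r = 0.988), Tbc1d31 (0.984), Tmem74b (0.978), Serpina7 (0.976), Gpr84 (0.975) and 2610524H06Rik (0.974). A correlation above 0.9 was seen for 258 genes. Within the 6 STAM arrays r stayed at 0.928 for Tbc1d31 and 0.843 for Arhgap4, and was 0.114 to 0.496 for the other four. Tbc1d31, a centrosomal protein gene, read 1.53, 1.67 and 2.14 in STAM-NON, 1.72, 2.48 and 2.03 in STAM-INS, and 0.18, 0.02 and 0.25 in Normal, with STAM-INS replicate 2 again the highest. Serpina7, which codes for thyroxine-binding globulin, had means of 2.98 ± 0.17 for STAM-NON, 3.37 ± 0.12 for STAM-INS and 0.88 ± 0.21 for Normal (SD, n = 3 per group). Tmem74b and Gpr84 were well above background on 0 of 3 Normal arrays.

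Of the genes of p53 and its targets, Cdkn1a left aside, 7 of 21 tested were higher in STAM-NON than in Normal and 0 were lower, with a median difference of 0.58. Over all genes 7.86% were called higher and 8.93% lower, with a median of -0.11. Phlda3, an inhibitor of Akt, read 2.12, 2.80 and 1.95 in STAM-NON, 1.30, 1.76 and 2.24 in STAM-INS, and -0.96, -0.99 and -1.07 in Normal, a rise of 3.30 in STAM-NON (SE 0.27, limma adjusted p 0.00186). Tnfrsf10b, a death receptor, rose by 2.60 (limma adjusted p 0.00153), though it was well above background on 1 of 3 Normal arrays. The anti-proliferative gene Btg2 rose by 2.28 (limma adjusted p 0.017). Pmaip1, Zmat3, Polk and Trp53inp1 were the other four called. Tnfrsf10b and Pmaip1, the latter well above background on 2 of 3 Normal arrays, passed the filter on dim probes only through the STAM groups. The counts that hold them are therefore a description. The second tested probes of Polk (1.11) and Trp53inp1 (0.64) lay on the same side with a limma adjusted p of 0.0936 each. The mRNA of p53 itself, Trp53, read -2.17 to -1.97 in STAM-NON and -2.41 to -1.38 in Normal, and differed by -0.08 (SE 0.25, limma adjusted p 0.841). Mdm2, which codes for the ubiquitin ligase of p53 and is also its target, differed by 0.35 (SE 0.20, limma adjusted p 0.246). In STAM-INS against Normal 6 of the 21 were higher, led by Phlda3 (2.78), Tnfrsf10b (2.56) and Btg2 (2.22), and 0 were lower. Over all genes 6.14% were called higher and 7.49% lower there. In STAM-INS against STAM-NON 0 of the 21 were called by limma and 0 had an unadjusted p under 0.05. Over all genes 0.0822% were called in that comparison and 9.32% had such an unadjusted p. A count of 0 called thus does not set these genes apart. Under the other scalings 6 to 11 were called higher in STAM-NON against Normal and 4 to 9 in STAM-INS against Normal. With 1 array left out in turn, 2 to 6 were called higher in STAM-NON against Normal and 2 to 8 in STAM-INS against Normal, in both with 2 left without Normal replicate 3.

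Other routes to the CDK inhibitors showed few calls. Of the other transcription factors known to act on Cdkn1a, limma called 0 of 10 in STAM-NON against Normal (1 at an unadjusted p under 0.05, median -0.03). Over all genes 16.8% were called in that comparison and 36.1% had an unadjusted limma p under 0.05, at a median of -0.11. Foxo1, which insulin signalling inactivates, was lower in STAM-INS than in Normal by 0.64 on the log2 scale (SE 0.16, limma adjusted p 0.0326), with means of 2.74 and 3.38, a call lost under 4 of 5 other scalings. Of the genes for turnover of p21 and p27, 0 of 11 were called (2 at an unadjusted p under 0.05, median -0.26), and Skp2, the ligase subunit that marks p27 for degradation, differed by 0.24 (SE 0.13, limma adjusted p 0.229). Of the regulators of the Ink4 genes, such as the Polycomb genes Bmi1 and Ezh2, 0 of 12 were called (2 at an unadjusted p under 0.05, median -0.04). Kdm6b, a histone demethylase that opposes Polycomb, was lower in STAM-INS than in Normal, with means of 0.39 and 0.90 (limma adjusted p 0.0417), a call lost under 3 of 5 other scalings. The methods' t-test after Benjamini-Hochberg adjustment called 0 in these 3 lists. It also called 0 of the 21 genes of p53 and its targets and 0 of the 13 senescence-associated genes in STAM-NON against Normal. It therefore does not set these 3 lists apart. With other scalings 0 to 1 genes of each of these 3 lists were called in either direction.

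Among the partners of the inhibitors, the G1 cyclins, kinases and Rb family had 2 of 10 genes higher in STAM-NON than in Normal and 0 lower, with a median of 0.11. The shares over all genes were 7.86% higher and 8.93% lower. Ccnd1, the cyclin D1 gene, read 3.96, 4.14 and 3.27 in STAM-NON, 2.92, 3.39 and 3.68 in STAM-INS, and 2.93, 2.73 and 2.21 in Normal. It rose by 1.17 in STAM-NON (SE 0.29, limma adjusted p 0.0342), and STAM-INS overlapped Normal. The call of Ccnd1 was lost under 1 of 5 other scalings. Rbl1, the gene of the Rb relative p107, rose by 1.56 in STAM-NON (SE 0.32, limma adjusted p 0.0206) and by 1.47 in STAM-INS (limma adjusted p 0.0232). Rbl1 was well above background on 2 of 3 Normal arrays and passed the filter on dim probes only through the STAM groups. The size of its difference is therefore uncertain, and was 0.55 in STAM-NON after normexp background correction. The counts that hold Rbl1 are a description. With 1 array left out, 0 to 2 of the list were called higher in STAM-NON and 0 to 1 in STAM-INS, against Normal. In STAM-NON against Normal the kinase genes Cdk4 and Cdk2 differed little, by 0.06 (limma adjusted p 0.777) and -0.21 (limma adjusted p 0.405). Cdk6 differed by 0.26 (limma adjusted p 0.621). Its probe was well above background on 1 of 3 Normal and 1 of 3 STAM-INS arrays and passed the filter only through STAM-NON. The size of the Cdk6 difference is therefore uncertain.

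Among other proteins that restrain CDKs, limma called 0 of 7 in STAM-NON against Normal (3 at an unadjusted p under 0.05, median 0.02). Such an unadjusted p was found for 36.1% of all genes. Wee1, whose product phosphorylates and inhibits Cdk1, was the only gene of all 9 cell cycle, p53 and senescence lists called between the STAM groups. Over all genes 11 of 13381 (0.0822%) were called in that comparison. Wee1 read 0.94, 1.09 and 0.70 in STAM-NON, -1.44, -1.26 and -1.16 in STAM-INS, and 1.61, 1.17 and 1.35 in Normal. The STAM-INS arrays lay below all others. Wee1 fell by 2.19 on the log2 scale in STAM-INS against STAM-NON (SE 0.16, limma adjusted p 0.00184) and fell by 2.66 against Normal (limma adjusted p 0.000575). Pkmyt1, the gene of a second kinase that inhibits Cdk1, was higher in STAM-INS than in Normal by 1.91 (SE 0.43, limma adjusted p 0.0261). Without STAM-INS replicate 2 that difference was 1.61 (limma adjusted p 0.0873), and without replicate 3 it was 1.96 (limma adjusted p 0.0609).

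Genes of S phase and mitosis, which the CDKs set in motion, had 4 of 18 higher and 1 lower in STAM-NON against Normal, with a median of 1.23. All genes together had 7.86% called higher and 8.93% lower, with a median of -0.11. Ccnb1, the cyclin B1 gene, had means of -1.61 in STAM-NON and -3.89 in Normal, where 1 of 3 arrays was well above background, and passed narrowly (2.28, SE 0.66, limma adjusted p 0.04996). Its probe passed the filter on dim probes only through the STAM groups, so the counts that hold it are a description. The mitotic kinase gene Aurka rose by 1.38 (SE 0.39, limma adjusted p 0.0472), a call lost under 3 of 5 other scalings. Tk1, for thymidine kinase, went the other way from 3.69, 3.72 and 3.71 in Normal to 2.30, 2.10 and 2.12 in STAM-NON (SE of the difference 0.16, limma adjusted p 0.00397). In STAM-INS against Normal 4 were higher and 1 lower, led by Plk1 (2.63), Ccnb1 (2.57) and Cdc20 (2.34), and 0 of 18 were called between the STAM groups, where 0 had an unadjusted limma p under 0.05. Of all genes 6.14% were called higher and 7.49% lower in STAM-INS against Normal. Between the STAM groups 0.0822% of all genes were called and 9.32% had an unadjusted limma p under 0.05. STAM-INS replicate 2 stood apart, as the mean over the list relative to the Normal mean was 0.86, 2.0 and 0.44 on the 3 STAM-INS arrays. Plk1, a mitotic kinase gene, read -0.51, 1.28 and -1.17 there. Without STAM-INS replicate 2 the differences fell short of the threshold, at 1.92 for Plk1 (limma adjusted p 0.085), 1.90 for Ccnb1 (limma adjusted p 0.0979) and 1.54 for Cdc20 (limma adjusted p 0.0652), and 1 of 18 was called higher. All 3 were also not called without STAM-INS replicate 1. Leaving out Normal replicate 1, 2 or 3 in turn left 0 of 18 called higher in STAM-INS against Normal. The number called higher in STAM-NON moved between 1 and 7 with the scaling, and between 0 (without STAM-NON replicate 1 or any of the Normal arrays) and 9 (without STAM-INS replicate 2) with 1 array left out.

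Of the senescence-associated genes, 3 of 13 tested were higher in STAM-NON than in Normal and 0 lower (median 0.46), and the number moved between 1 and 5 with the scaling and between 0 and 3 with 1 array left out, with 0 left without STAM-NON replicate 1 or Normal replicate 2 or 3. The shares over all genes were 7.86% higher and 8.93% lower. Timp1, an inhibitor of matrix metalloproteinases, read -0.26, -1.03 and -1.60 in STAM-NON and was not well above background in Normal, at least 7.65-fold higher (limma adjusted p 0.0163). Its probe passed the filter on dim probes only through the STAM groups, so its call and the counts that hold it are a description. Plaur, the urokinase receptor gene, rose by 2.01 (limma adjusted p 0.0454), and Ccl2, which codes for a monocyte chemokine, rose by 1.65 (limma adjusted p 0.0381). In STAM-INS against Normal 3 of 13 were higher, led by Timp1, Ccl2 (1.87) and Cxcl1 (0.83), around a median of 0.04. All genes had 6.14% called higher there, at a median of -0.07. Timp1 read -0.30, -2.33 and -2.69 in STAM-INS, at least 4.36-fold above Normal. Without STAM-INS replicate 1, the highest of them, it was at least 2.62-fold higher and no longer called (limma adjusted p 0.0569).

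**Figure D5:**
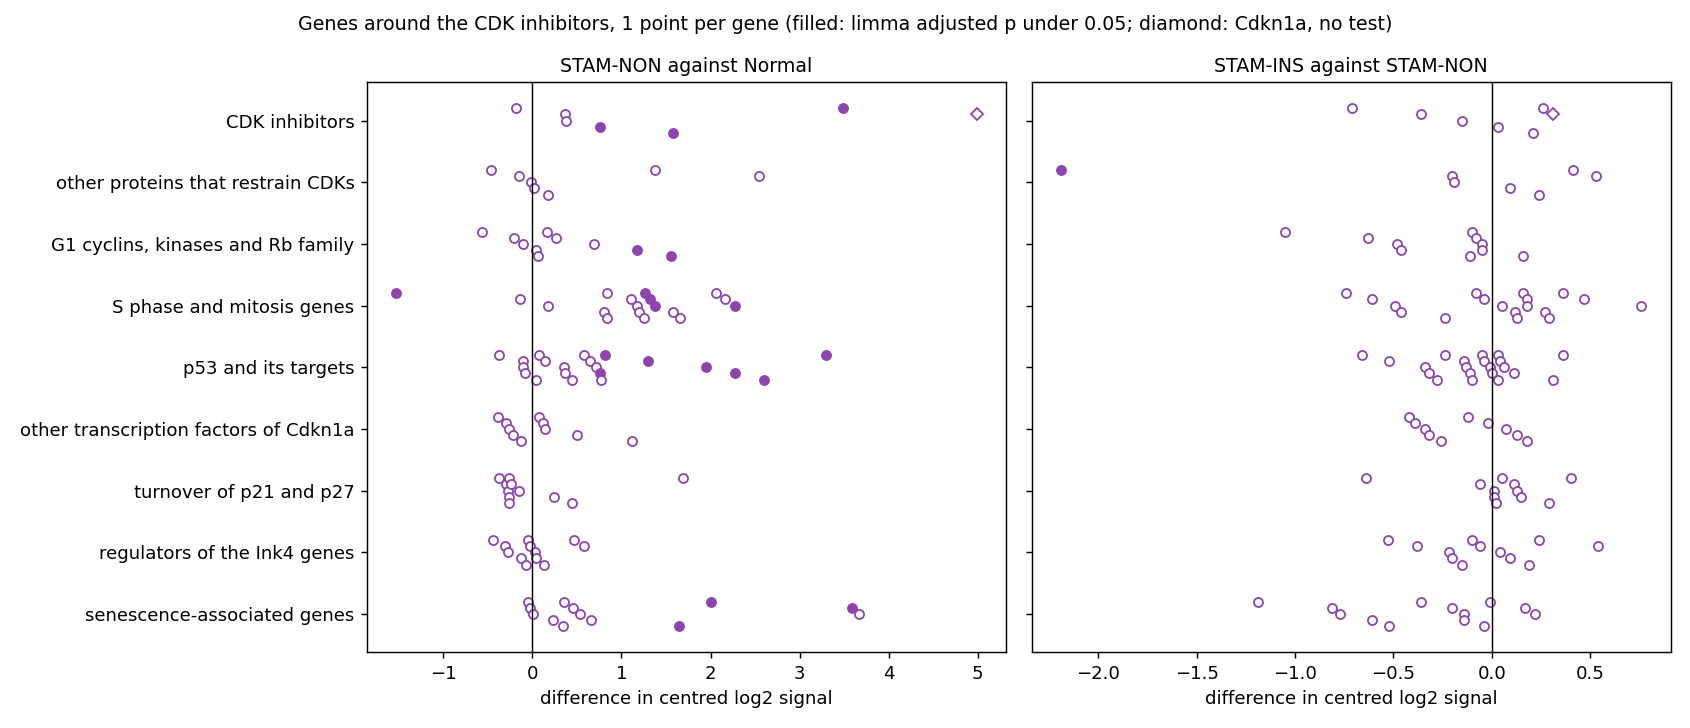
Differences in centred log2 signal (horizontal axes) for the tested genes of 9 lists, 1 point per gene, in STAM-NON against Normal (left) and STAM-INS against STAM-NON (right). Filled points had a limma adjusted p under 0.05, and the diamond of Cdkn1a was not tested. On the left 7 of 21 genes of p53 and its targets are filled, and on the right Wee1 at -2.19 is the only filled point.

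Markers of cell types also differed between STAM and Normal liver. In STAM-NON against Normal 2 of 6 tested macrophage markers were higher (Cd5l by 1.33, Clec4f by 0.97). Of the bile duct cell markers 3 of 5 were higher (Krt7 by 1.55, Spp1 by 1.50, Sox9 by 0.96). In the endothelial list 1 of 6 was higher (Lyve1 by 3.01), and in the lymphocyte list 1 of 4. That last gene was Ptprc (by 1.09), which is not limited to lymphocytes. Not all members of the last 3 lists rose. Differences ran from -0.31 to 1.55 in the bile duct list (median 0.96) and from -0.6 to 3.01 in the endothelial list (median 0.19). In the lymphocyte list they ran from -0.24 to 1.09 (median 0.35), with 2 of 4 above 0. Krt7 was well above background on 1 of 3 Normal arrays and passed the filter on dim probes only through the STAM groups. The size of its difference is therefore uncertain, and was 0.44 after normexp background correction. The bile duct counts that hold Krt7 are a description. Of the hepatocyte markers 2 of 8 were lower (Cps1 by 0.67, Asgr1 by 0.52) and of the stellate cell markers limma called 0 of 7 (4 at an unadjusted p under 0.05), at a median of 0.52. Among all genes in this comparison 7.86% were called higher, 8.93% were called lower and 36.1% had an unadjusted limma p under 0.05. Over 6 scalings, the one used here included, 1 to 3 macrophage markers and 2 to 3 bile duct cell markers were called higher, and 0 to 2 hepatocyte markers lower at a median of -0.58 to -0.12. With 1 array left out 0 to 3 macrophage, 0 to 3 bile duct cell, 0 to 1 endothelial and 0 to 1 lymphocyte markers were called higher, and 0 to 4 hepatocyte markers lower. As a mean over its tested genes relative to the Normal mean, the macrophage list stood at 0.51 to 1.39 on the STAM-NON arrays, 0.22 to 1.51 on the STAM-INS arrays and -0.38 to 0.22 on the Normal arrays. The bile duct list stood at 0.59 to 1.35, 0.75 to 1.09 and -0.45 to 0.47, and the hepatocyte list at -0.59 to -0.24, -0.37 to -0.20 and -0.02 to 0.02. The lymphocyte genes Cd8a and Ms4a1 were too dim to be tested. The part of these cells in the values of Cdkn1a and the Ink4 genes was not tested. In STAM-INS against STAM-NON limma called 0 markers of the 6 lists, and 2 stellate cell and 2 bile duct cell markers had an unadjusted p under 0.05. Over all genes 0.0822% were called in that comparison and 9.32% had an unadjusted limma p under 0.05.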

How the data were processed

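The authors deposited scanner files of Feature Extraction 11.5.1.1, in which the processed signal is a spot's intensity on a linear scale after background subtraction, not normalised between arrays, on an array designed on mm9. Control spots and spots flagged as outliers (161 to 217 per array) were left out, log2 signals were centred on the 75th percentile of their array, and spots of a probe were averaged. The test was run on the 26278 probes with a share of at least 0.5 of spots well above background on all 3 arrays of some group. Groups and replicate numbers came from the labels. Limma 3.58.1 (R 4.3.3, lmFit and eBayes, two-sided) was fitted to all 9 arrays with 6 residual degrees of freedom, with Benjamini-Hochberg adjustment over the tested probes and a threshold of 0.05. The code was tested on simulated data. The probe with the highest mean stands for a gene. Symbols came from a RefSeq table of GRCm38.p6 through accessions, which named 27656 probes.

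Genes named from each list are up to 3 of those called with the largest difference, and a few others named for their role were chosen after their values were seen. Some results for single genes of the lists are not reported here. The family, the lists and the tests were chosen with earlier results of these data known. No normalisation or test of the arrays is given in the methods. Their general unpaired t-test was run as an alternative, beside other scalings, filters, blocks and the removal of each array. Normexp correction used the median signal of a spot, in place of the planned mean signal.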

Additional observations from a re-analysis of the deposited data

Results flagged for a closer look

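The second probe of Cdkn2b was too dim for the comparisons but was well above background on 3 STAM arrays and 0 Normal arrays. It read -4.12, -4.84 and -3.36 in STAM-NON, where replicates 1 and 3 were well above background, and -3.17, -4.14 and -3.82 in STAM-INS, where replicate 1 was. In Normal mice it read -5.66, -5.89 and -6.14. The STAM arrays lay above the Normal arrays, as for the main probe of the gene, and the difference was not tested.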

How the results depend on the processing

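The number of CDK inhibitor genes other than Cdkn1a called higher in STAM-NON against Normal was 3. It was 1 with no filter on dim probes, 1 with probes required well above background on all arrays (Cdkn2a and Cdkn2b were then not tested), 1 with only the 2 groups in the fit, 0 with the slide row as a block and 0 with the methods' t-test after Benjamini-Hochberg adjustment. The row block was estimated from the STAM-INS arrays alone, since the STAM-NON and the Normal arrays lay in separate rows. Leaving out 1 array gave 1 to 3, with 1 left without STAM-NON replicate 1 or 3 or any of the Normal arrays. In STAM-INS against Normal the count of 3 became 1 with no filter and 1 with the strict filter, and 2 to 3 with 1 array left out. In STAM-INS against STAM-NON it was 0 under all 23 alternatives run. Cdkn2a was called under 19 of 21 alternatives in STAM-NON against Normal, with an adjusted p of 0.107 in limma under the row block and 0.0585 in the methods' t-test, and under all 21 in STAM-INS against Normal. After normexp its differences were 1.52 and 1.24 in place of 3.49 and 3.13. Counts of list genes with 1 array left out, and the calls of single list genes under other scalings, were added after seeing the data.

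Directions turned for small differences only. Cdkn1b, STAM-NON minus Normal, became 0.13 with spike-in centring and 0.03 with normexp, and STAM-INS minus Normal became 0.01 with spike-in centring. Cdkn1b, STAM-INS minus STAM-NON, became -0.01 with the percentile over detected probes, -0.12 with spike-in centring, -0.04 with normexp, and ran from -0.07 to 0.15 with 1 array left out. Cdkn1c, STAM-NON minus Normal, became -0.03 with the row block and ran from -0.13 to 0.78 with 1 array left out. In STAM-INS minus STAM-NON, Cdkn2b ran from -0.15 to 0.51 and Cdkn2d from -0.34 to 0.01. Cdkn1a minus Normal ran from 3.15 (normexp) to 6.25 (row block) in STAM-NON and from 3.45 (normexp) to 5.73 in STAM-INS. Its difference between the STAM groups ran from -0.53 (row block) to 0.73. The median over all tested probes in STAM-NON against Normal was -0.13, and moved to 0.18 with spike-in centring and -0.29 with median centring. The causes of these moves were not tested.

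All probes called numbered 4220, 24 and 3647 in STAM-NON against Normal, STAM-INS against STAM-NON and STAM-INS against Normal. They ranged over 15 to 7534, 1 to 1498 and 572 to 8811 between the alternatives. Replicate numbers did not pair the mice, as deviations of arrays with the same number correlated at -0.288 to 0.149 over 9 pairs and those with different numbers at -0.193 to 0.283 over 18 pairs. With the replicate number as a block, 2 CDK inhibitor genes were called in each comparison with Normal and 0 between the STAM groups, the limma adjusted p of Cdkn2b became 0.0651 and 0.0527, and the counts over all probes were 2016, 6 and 1872. The slide as a random block was not run, since all Normal arrays lie on a slide of their own.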
